A study of Caenorhabditis elegans with 45 samples.

Results

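The 10 genes described here encode the cyclins and cyclin-dependent kinases (CDKs) that drive the cell division cycle of *C. elegans*: *cyb-1*, *cyb-2.1*, *cyb-2.2*, *cyb-3*, *cya-1*, *cye-1*, *cyd-1*, *cdk-1*, *cdk-2*, and *cdk-4*. They were chosen by name from the 25985 genes of the expression table, and their levels were followed over 9 ages in both strains of the study. Whole worms were sequenced from conditionally sterile strains, *fem-3(q20)* IV (FEM, 23 libraries) and *gon-2(q388); gem-1(bc364)* (GEM, 22 libraries), to follow adult aging without contamination by progeny. Both were grown as synchronized populations from arrested larvae at the restrictive temperature of 25 °C on HT115 bacteria that carried the empty vector L4440, and at least 1000 worms were pooled per sample. Time was counted in hours after larvae were fed: adults were taken at 41 and 49 h on their first day, at 65, 73, 89, and 97 h on days 2 and 3, and then once each at 117, 137, and 257 h, which were days 4, 5, and 10. Each strain and age had 2 or 3 libraries. FEM animals have a somatic gonad and a masculinized germline that makes excess sperm and no oocytes. The block to gonad formation in GEM animals is incomplete: worms seen to carry progeny were removed by hand before collection, and part of the population had a malformed gonad on day 4. Genotype and the state of the gonad cannot be told apart in this design.

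Cyclins are the regulatory subunits that switch on the CDKs and decide when each kinase acts. In animals D-type cyclins with CDK4 drive cells through G1, cyclin E with CDK2 starts DNA replication, and A- and B-type cyclins with CDK1 carry cells through mitosis and the meiotic divisions. The somatic cells of an adult worm no longer divide, whereas its germline holds dividing stem cells, cells in meiosis, and oocytes that are loaded with maternal mRNA for the divisions of the embryo.

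Levels are given as log2(normalized count + 1), where the normalized count is the number of reads of a gene divided by a size factor for the library, so a step of 1 is a doubling for all but the lowest counts. Differences and fold changes are on the same scale and understate the change of genes with very low counts. A gene was called higher or lower where limma, fitted to 16925 genes, gave an adjusted p below 0.05, and an error given with a difference is its standard error (SE). Libraries held 13485718 to 43280727 reads in genes in FEM and 12810644 to 40491202 in GEM. All 10 genes passed the filter on low values, with mean levels between the percentiles 53.5 (*cyd-1*) and 98.0 (*cyb-1*) of all genes in the table. The least covered values were those of *cyb-2.1* in GEM animals, at 3 reads in a library, and of *cyd-1* in FEM animals, at 4 reads. The mutated genes gave no check of the labels, since none of the alleles was taken to remove the mRNA. *gem-1* ranged between 7.39 and 9.002 in FEM libraries and between 5.60 and 7.53 in GEM libraries, *gon-2* between 10.27 and 10.82 in FEM and 10.42 and 11.50 in GEM, and *fem-3* between 6.95 and 7.93 in FEM and 3.78 and 10.58 in GEM.

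Marker genes of the gonad moved with the age of GEM animals, and their part in the results below was not tested. The mean level of 11 oocyte genes lay between 7.68 and 9.67 in FEM libraries and between 3.45 and 13.78 in GEM libraries, where the group mean was 4.36 at 41 h and 13.67 at 257 h. A set of 12 genes of the proliferating and meiotic germline lay between 9.95 and 10.71 in FEM and between 5.48 and 12.54 in GEM libraries. The mean of 7 sperm genes was 7.85 to 10.54 in FEM and 2.47 to 6.12 in GEM libraries. The 8 zygotic genes of the embryo were at most 2.59 in FEM and 4.02 in GEM libraries, with group means of 0.88 at 41 h and 2.12 at 257 h in FEM and of 0.33 at 41 h, 2.91 at 89 h, and 3.32 at 257 h in GEM. The 3 lists of somatic tissues outside the gonad had lower means on day 10 than at 41 h in both strains. The mean of 6 body wall muscle genes was 11.33 at 257 h against 14.63 at 41 h in FEM, and 11.91 against 14.60 in GEM. For 5 genes of the adult hypodermis it was 6.59 against 11.64 in FEM and 5.16 against 11.90 in GEM, and for 6 intestinal genes 9.79 against 11.14 in FEM and 9.87 against 11.09 in GEM. The mean of 5 somatic gonad genes lay between 9.03 and 9.31 in FEM libraries and between 6.43 and 8.62 in GEM libraries. None of these lists held a gene at 0 in all libraries of a strain. Fewer cells of a type and less RNA per cell cannot be told apart in whole worms. In GEM animals, replicate 2 at 65 h (oocyte genes at 8.18, against 9.71 and 9.64 in the other libraries) and replicate 3 at 89 h (13.78 against 12.34 and 12.06) stood apart from their groups. So did replicate 3 at 41 h (3.45 against 5.08 and 4.54) and replicate 2 at 73 h (11.35 against 10.38 and 10.12, with embryo genes at 2.36 against 0.83 and 0.74). The libraries at 65 and 89 h were chosen after seeing the data to be left out together, each library was also left out singly, and the values that this changed are given beside each result.

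Gene positions are given on WBCel235 as annotated by Ensembl. *cyb-1* (WBGene00000865) lies on chromosome IV from 10735216 to 10737177 and *cyb-2.1* (WBGene00000866) on IV from 10985985 to 10987426, both on the plus strand. *cyb-2.2* (WBGene00000867) is on the plus strand of chromosome I from 4114861 to 4116370, and *cyb-3* (WBGene00000868) on the plus strand of V from 15395696 to 15397353. *cya-1* (WBGene00000863) spans 9106699 to 9109272 on the minus strand of III, and *cdk-1* (WBGene00000405) spans 9747472 to 9748852 on the plus strand of the same chromosome. *cye-1* (WBGene00000871) is found at 6780799 to 6784397 and *cdk-2* (WBGene00019362) at 3410013 to 3416368, both on the plus strand of I. *cyd-1* (WBGene00000870) covers 12980591 to 12993117 on the plus strand of II, and *cdk-4* (WBGene00000406) covers 13515856 to 13518911 on the minus strand of X. The libraries were not directional, so exons shared with a neighbor can share reads: 107 bases of *cya-1* with *dos-1* on the opposite strand, and in *cdk-2* 76 bases with *anr-45* on the opposite strand and 100 bases with *K03E5.9* on the same strand. *cyb-2.1* and *cyb-2.2* are close paralogs, and how the authors' counting divided reads between them is uncertain.

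*cyb-1*, a cyclin B that acts with CDK-1 in the mitoses of the embryo and germline, showed the largest excess of FEM over GEM animals among the 10 genes, at 49 h. In FEM libraries it was at 11.48, 11.76, and 11.67 at 41 h and at 13.66, 13.72, and 13.43 at 49 h, against 7.70, 7.76, and 6.97 at 41 h and 7.04 and 8.30 at 49 h in GEM libraries. The strains did not overlap at either age, and FEM was 4.16 ± 0.33 higher at 41 h (limma, adjusted p = 8.7e-13) and 5.94 ± 0.37 higher at 49 h (limma, adjusted p = 1.83e-15), which is 17.9-fold and 61.3-fold. From 65 h on the group means of FEM animals stayed between 13.37 and 14.35, while those of GEM animals were 9.67, 10.81, 12.69, 12.40, 13.03, 13.54, and 13.86 in order of age. FEM remained higher by 4.38, 3.24, 1.18, 1.71, and 1.32 in turn at 65, 73, 89, 97, and 117 h (SE 0.33 to 0.41). At 137 h the libraries were at 13.97 and 14.02 in FEM and at 13.71 and 13.37 in GEM, and at 257 h at 13.60 and 13.13 in FEM and at 13.73 and 13.99 in GEM. Neither of these last differences passed the test (0.45 ± 0.41 with limma, adjusted p = 0.368, and -0.50 ± 0.41, adjusted p = 0.298). The call at 117 h was lost without FEM replicate 2 (1.05) or GEM replicate 2 (1.03) of that age. The difference at 49 h was 5.31 without GEM replicate 1 and 6.56 without GEM replicate 2 of that age. FEM was also called higher at 137 h with quantile normalization (0.87) and in a fit to only the groups compared (0.45, limma, adjusted p = 0.0449). That kind of fit lost the call at 89 h (1.18, limma, adjusted p = 0.0737). The strains overlapped at 89 h, with the lowest FEM library at 13.58 and the highest GEM library at 13.72.

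**Figure D1:**
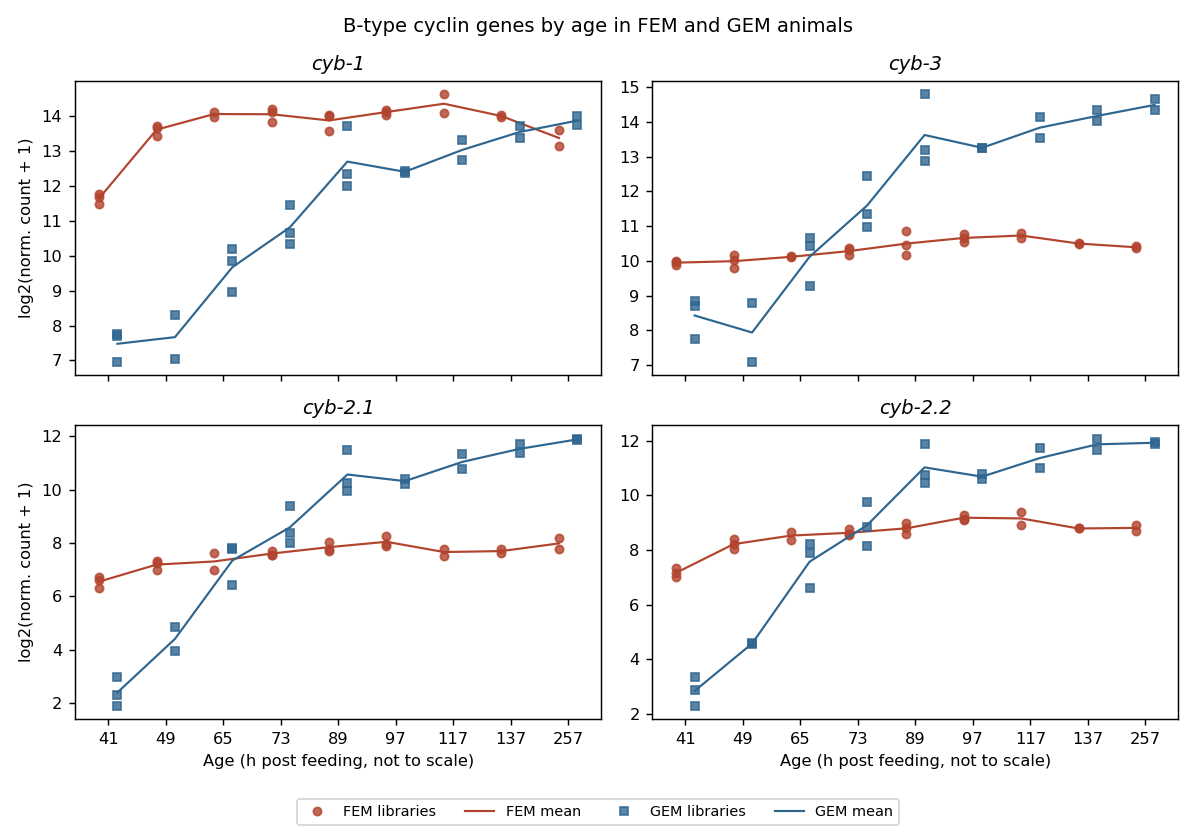
Levels of the 4 B-type cyclin genes, log2(normalized count + 1), in each FEM library (red circles, left of each tick) and GEM library (blue squares, right) at the 9 ages, with lines through the group means; ages are evenly spaced and not to scale. *cyb-1* starts at 11.64 in FEM and 7.48 in GEM at 41 h. Its lines stand at 13.99 in FEM and 13.54 in GEM at 137 h and cross by 257 h, at 13.37 and 13.86. The lines of the other 3 genes cross between 49 and 73 h, with GEM higher afterwards.

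*cyb-3*, a cyclin B3 that is needed for the separation of sister chromatids in the embryo, ran a different course. In FEM animals its group means covered only 9.94 at 41 h to 10.73 at 117 h, and the libraries were at 10.42 and 10.36 at 257 h. In GEM animals the libraries held 8.83, 8.69, and 7.76 at 41 h and 10.65, 9.26, and 10.43 at 65 h, and later 13.19, 12.88, and 14.79 (89 h) and 14.33 and 14.64 (257 h). FEM was 1.52 ± 0.39 higher at 41 h (limma, adjusted p = 0.00137) and 2.05 ± 0.44 higher at 49 h (limma, adjusted p = 0.000146), with no overlap between the strains. At 65 h both strains had a mean of 10.11. From 73 h on *cyb-3* was lower in FEM, with differences of -1.31, -3.13, -2.59, -3.10, -3.67, and -4.10 in order of age (SE 0.39 to 0.48), which is 17.1-fold at 257 h (limma, adjusted p = 1.13e-08). The call at 73 h was lost without GEM replicate 2 of that age (-0.88, limma, adjusted p = 0.0876). At 49 h the difference was 1.22 without GEM replicate 1 and 2.89 without GEM replicate 2. With each library centered on its median *cyb-3* was called lower in FEM at 65 h as well (-0.97).

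Within a library the difference between *cyb-1* and *cyb-3* does not depend on the size factors of the libraries. Per kilobase of exon, *cyb-1* exceeded *cyb-3* in all 23 FEM libraries, by 1.39 to 3.81 on the log2 scale with a median of 3.32. In all 22 GEM libraries it was below *cyb-3*, at -1.34 to -0.27 with a median of -0.96. The strains were thus apart at every age by this ratio, also at 257 h, where the group means were 2.77 in FEM and -0.83 in GEM. The lowest FEM values were those at 41 h (group mean 1.48, against 3.41 at 49 h). The pair was picked after its values were seen and was not tested.

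**Figure D2:**
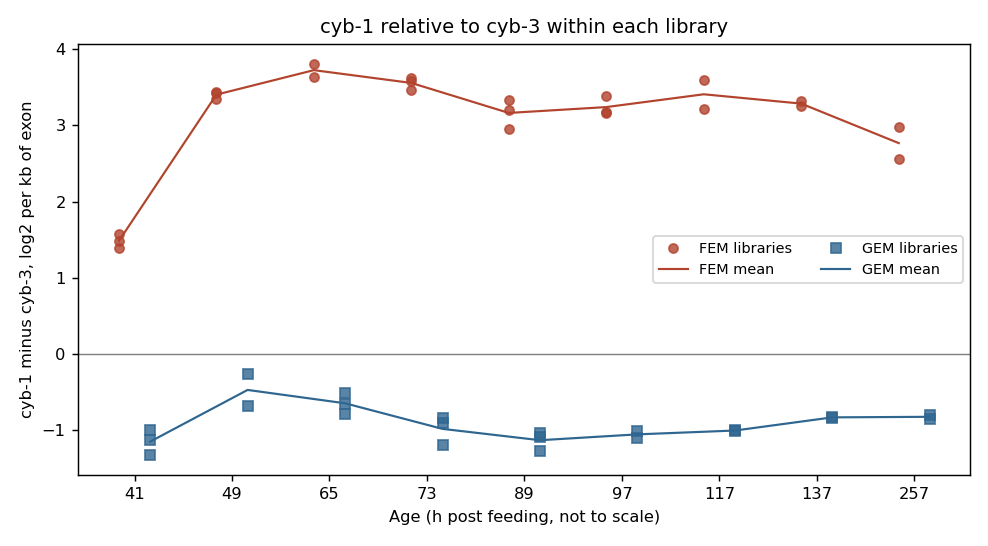
Difference between *cyb-1* and *cyb-3* within each library, in log2 units per kilobase of exon, for FEM (red circles, left of each tick) and GEM (blue squares, right) at the 9 ages, with lines through the group means and a grey line at 0; ages are not to scale. Every FEM library lies between 1.39 and 3.81, above 0, and every GEM library between -1.34 and -0.27, below 0.

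*cyb-2.1* and *cyb-2.2*, a pair of closely related B-type cyclins, had the largest range of all 10 genes. In GEM animals *cyb-2.1* was at 1.89, 2.99, and 2.29 at 41 h, from 3 to 6 reads per library, and at 11.86 and 11.92 at 257 h. In FEM animals it was at 6.30, 6.72, and 6.62 at 41 h and at 8.19 and 7.78 at 257 h. *cyb-2.2* was at 7.03, 7.33, and 7.14 in FEM and 2.86, 3.36, and 2.29 in GEM libraries at 41 h, and at 8.92 and 8.70 in FEM and 11.96 and 11.89 in GEM libraries at 257 h. Its GEM values at 41 h came from 7, 8, and 5 reads. For both genes all FEM libraries were above all GEM libraries on day 1 and below them from 89 h on. The first held for 44.7% and 48.1% of all genes at 41 and 49 h. The second held for 26.4% to 48.6% at single ages. FEM was higher at 41 h by 4.16 ± 0.35 for *cyb-2.1* (limma, adjusted p = 3.67e-12) and by 4.33 ± 0.34 for *cyb-2.2* (limma, adjusted p = 5.36e-13). At 257 h FEM was lower by -3.90 ± 0.43 for *cyb-2.1* (limma, adjusted p = 4.37e-09) and by -3.12 ± 0.42 for *cyb-2.2* (limma, adjusted p = 1.16e-07). Per kilobase, *cyb-2.1* minus *cyb-2.2* ranged from -1.51 to -0.45 over the FEM libraries and from -0.89 to 0.35 over the GEM libraries, ranges that overlap. At 65 h *cyb-2.2* was 0.96 ± 0.38 higher in FEM, a call lost without either FEM library (1.101 and 0.81) or GEM replicate 2 (0.48), and at 73 h *cyb-2.1* was -0.99 ± 0.35 lower, a call lost without GEM replicate 2 (-0.58) or FEM replicate 1 or 2 (-0.96 each). The *cyb-2.2* call at 65 h was also lost with quantile normalization (0.01) and centering (-0.0096), under which *cyb-2.2* was called lower in FEM at 73 h (-1.003 and -1.0003) and *cyb-2.1* at 65 h (-1.099 and -1.003). The reads of these paralogs may not be cleanly divided, which limits the value of this ratio.

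*cya-1*, a cyclin A, was at 8.60, 8.74, and 8.84 in FEM and 6.92, 6.77, and 6.45 in GEM libraries at 41 h. At 257 h it was at 10.13 and 9.62 in FEM and at 11.83 and 11.70 in GEM. FEM was higher by 2.01 ± 0.25 at 41 h (limma, adjusted p = 2.42e-08), and by 2.55 and 1.68 at 49 and 65 h (SE 0.28 each). It was lower at 89, 117, and 137 h by -0.98, -1.36, and -2.07, and by -1.89 ± 0.31 at 257 h (limma, adjusted p = 2.9e-06), and the differences at 73 h (0.43 ± 0.25) and 97 h (-0.63 ± 0.28) did not pass. The call at 89 h was lost without GEM replicate 3 of that age (-0.59, limma, adjusted p = 0.0528). These opposite differences nearly cancelled in the mean over the 9 ages, -0.03 ± 0.09 (limma, adjusted p = 0.81). With another scaling that mean was called lower in FEM, at -0.15 with quantile normalization (limma, adjusted p = 0.0289) and -0.64 with centering (limma, adjusted p = 1.31e-09), as was the difference at 97 h (-0.72 and -1.16).

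*cye-1*, cyclin E, and its partner kinase *cdk-2* moved in the same way. *cye-1* was at 9.12, 9.05, and 9.13 in FEM and 7.27, 7.08, and 7.29 in GEM libraries at 41 h, and at 10.27 and 9.67 in FEM and 12.45 and 12.57 in GEM libraries at 257 h. *cdk-2* was at 6.75, 6.997, and 7.04 in FEM and 5.57, 5.67, and 5.73 in GEM libraries at 41 h, and at 7.78 and 7.24 in FEM and 9.74 and 9.38 in GEM libraries at 257 h. The strains overlapped only at 73 h for both genes. Of all genes, 44.7% to 48.2% had all FEM libraries above at single ages up to 65 h. From 89 h on 26.4% to 48.6% had them below. *cye-1* was 1.89 ± 0.31 higher in FEM at 41 h (limma, adjusted p = 5.12e-06) and lower by -2.54 ± 0.38 at 257 h (limma, adjusted p = 9.34e-07). For *cdk-2* the values were 1.27 ± 0.26 higher (limma, adjusted p = 0.000101) and -2.05 ± 0.32 (limma, adjusted p = 1.44e-06). At 65 h both genes were called higher in FEM (*cye-1* by 1.06, *cdk-2* by 0.83), and both calls were lost without GEM replicate 2 (0.63 and 0.61) or FEM replicate 2 (0.96 and 0.50) of that age. At 97 h both were called lower in FEM (*cye-1* by -1.21, *cdk-2* by -1.12), and both calls were lost without GEM replicate 1 (-1.13 and -0.98). Under quantile normalization the *cdk-2* differences at 41 and 49 h were 0.26 and 0.39 and no longer passed, and with centering the difference at 49 h (0.43) did not pass. At 65 h *cdk-2* turned to -0.15 with quantile normalization and -0.13 with centering, and the *cye-1* call was lost (0.14 and 0.09). At 73 h, where as deposited neither gene was called, both were called lower in FEM under either scaling, *cye-1* by -0.67 and -0.73 and *cdk-2* by -0.77 and -0.70 with quantile normalization and centering in turn.

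*cdk-1* encodes the kinase that the A- and B-type cyclins activate for mitosis and meiosis. It was at 9.51, 9.61, and 9.61 in FEM and 7.50, 7.13, and 7.18 in GEM libraries at 41 h. At 49 h it was at 10.37, 10.43, and 10.20 in FEM and 6.49 and 7.43 in GEM libraries, and at 257 h at 10.37 and 10.07 in FEM and 12.35 and 12.32 in GEM libraries. The strains did not overlap at any age, with FEM above GEM up to 73 h and below it from 89 h on. Of all genes, 33.9% to 48.2% had all FEM libraries above at single ages up to 73 h. From 89 h on 26.4% to 48.6% had them below. FEM was higher by 3.37 ± 0.34 at 49 h (limma, adjusted p = 2.34e-10), and by 2.30, 2.13, and 0.97 at 41, 65, and 73 h (SE 0.30 to 0.34). The differences of -0.72 ± 0.30 at 89 h and -0.44 ± 0.34 at 97 h did not pass, and *cdk-1* was then lower in FEM by -1.104 and -1.96 at 117 and 137 h and by -2.11 ± 0.37 at 257 h (limma, adjusted p = 9.47e-06). The difference at 89 h passed in 8 of the 45 fits that left out a library, which were GEM libraries of 49 to 89 h. The call at 73 h was lost without GEM replicate 3 (0.65), and that at 117 h without replicate 1 of FEM (-0.89) or of GEM (-0.76). Scaling changed the ages around the crossing. The call at 73 h was lost with quantile normalization (0.35, limma, adjusted p = 0.185) and with centering (0.25, limma, adjusted p = 0.385). At 89 h FEM was called lower with quantile normalization (-0.69), with centering (-1.18), and with a pseudocount of 8 (limma, adjusted p = 0.048), and with centering also at 97 h (-0.97).

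*cyd-1*, the D-type cyclin of *C. elegans*, and *cdk-4*, its kinase, act in G1 of the larval cell divisions. *cyd-1* was at 5.64, 5.66, and 5.15 in FEM and 7.24, 6.75, and 6.29 in GEM libraries at 41 h, at 3.33, 3.20, and 4.60 in FEM and 6.75, 6.54, and 9.09 in GEM libraries at 89 h, and at 4.60 and 4.95 in FEM and 7.17 and 7.55 in GEM libraries at 257 h. Every FEM library was below every GEM library at each of the 9 ages, which held for 0.75% of all genes tested. *cyd-1* was called lower in FEM at all 9 ages, as were 0.29% of the genes tested, with differences between -1.28 ± 0.53 at 41 h (limma, adjusted p = 0.0433) and -3.75 ± 0.53 at 89 h (limma, adjusted p = 4.46e-07). Its coverage was thin, with 4 to 20 reads in FEM and 20 to 385 reads in GEM libraries between 49 and 89 h. Leaving out a library ended the call at 41 h for each FEM library (-1.36, -1.37, and -1.11 without replicates 1, 2, and 3) and for GEM replicates 1 and 2 (-1.04 and -1.28). It was also lost when all genes were tested without a filter (limma, adjusted p = 0.0643 at 41 h). At later ages the call was lost without FEM replicate 2 (-1.34) or GEM replicate 2 (-1.18) at 49 h, FEM replicate 2 (-1.56) or GEM replicate 3 (-1.45) at 65 h, FEM replicate 1 (-1.16) or GEM replicate 2 (-1.21) at 73 h, and GEM replicate 1 (-1.99) at 117 h. The difference at 89 h was -2.93 without GEM replicate 3 of that age, and the one at 117 h was -3.17 without GEM replicate 2.

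For *cdk-4* no difference between the strains passed at 41, 49, 65, or 73 h (-0.26 to 0.24). Its libraries were at 4.78, 5.53, and 5.68 in FEM and 5.51, 5.11, and 5.63 in GEM at 41 h, which overlap, and at 4.72 and 4.86 in FEM and 6.48 and 6.71 in GEM at 257 h, which do not. From 89 h on FEM libraries were below GEM libraries at every age, where 26.4% to 48.6% of all genes were at single ages. The differences passed at 89 h (-1.24 ± 0.34), 117 h (-1.85 ± 0.42), and 257 h (-1.80 ± 0.42, limma, adjusted p = 0.000395) and not at 97 h (-0.90 ± 0.39) or 137 h (-0.83 ± 0.42). The call at 89 h was lost without GEM replicate 3 of that age (-0.73), and the difference at 97 h passed without GEM replicate 2 or 3 at 89 h. With quantile normalization *cdk-4* was lower in FEM on day 1 as well, by -1.25 at 41 h and -1.29 at 49 h, as with centering (-0.84 and -1.29). Under both scalings it was also called lower at 73 h (-0.81 with quantile normalization and -0.76 with centering), 97 h (-1.59 and -1.44), and 137 h (-1.36 and -1.13).

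**Figure D3:**
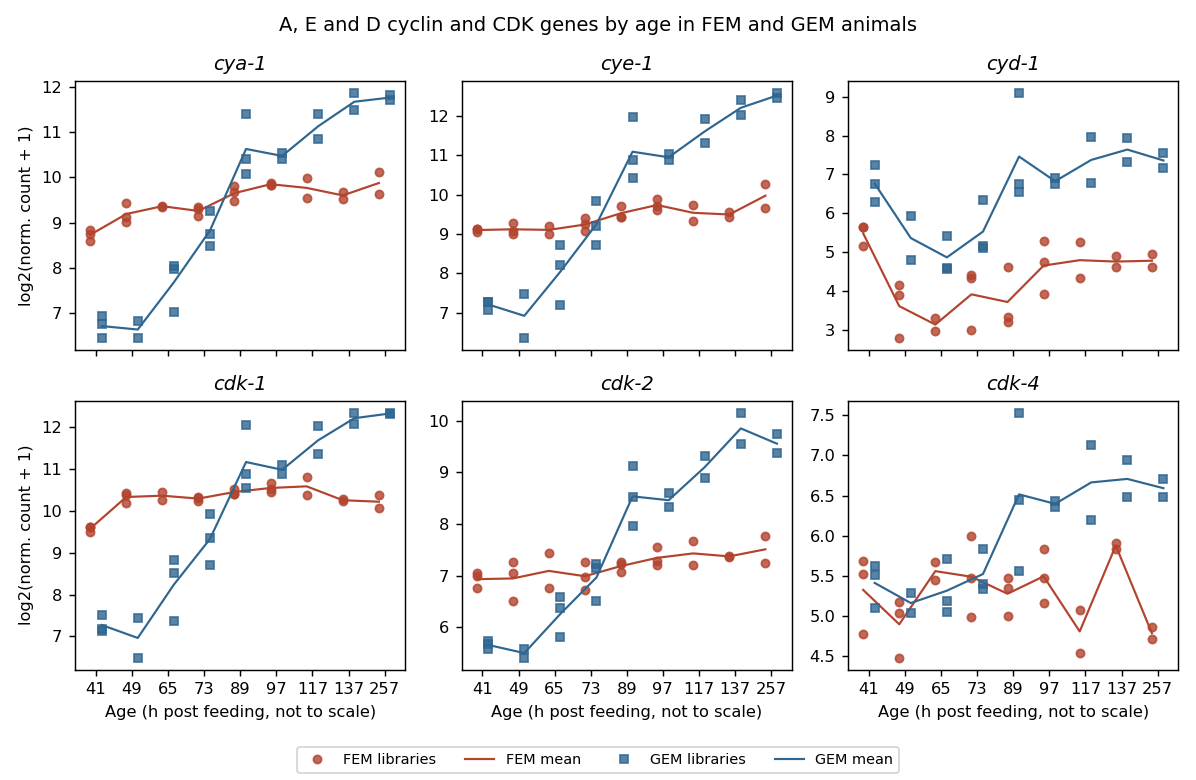
Levels of the A, E, and D cyclin genes and the 3 CDK genes, log2(normalized count + 1), in each FEM library (red circles, left of each tick) and GEM library (blue squares, right) at the 9 ages, with lines through the group means; ages are not to scale and each panel has its own axis. For *cya-1*, *cye-1*, *cdk-1*, and *cdk-2* GEM starts below FEM and ends above it, while all *cyd-1* points of FEM lie below those of GEM at each age.

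Read by age on the deposited scale, the strains changed places. At 41 h 8 of the 10 genes were higher in FEM and 1 (*cyd-1*) was lower, where 39.2% and 13.2% of all genes tested were called higher and lower. At 49 h the counts were 8 and 1 (all genes 43.2% and 14.4%), with 6 and 1 by 65 h (38.3% and 10.3%) and 2 and 3 by 73 h (28% and 10.1%). At 89 h 1 gene, *cyb-1*, was higher in FEM (18.8%) and 8 were lower, where 44.3% of all genes were called in either direction. The counts were 1 and 6 on the next occasion, 97 h (18.6% and 16.3%), then 1 and 9 on day 4 (18.1% and 28%), 0 and 8 on day 5 (18.8% and 36.3%), and 0 and 9 on day 10 (21.3% and 40.4%). The largest differences of both signs among these 90 values were those of B-type cyclins, 5.94 for *cyb-1* at 49 h and -4.10 for *cyb-3* at 257 h. Counted by libraries that did not overlap, 8 genes at 41 h and 8 at 49 h had all FEM libraries above all GEM libraries (44.7% and 48.1% of all genes), as had 6 at 65 h (48.2%). All FEM libraries were below all GEM libraries for 9 genes at 89 h (26.4%) and for 10 at 257 h (47.9%). Among the 10 genes 7 were called higher in FEM at both 41 and 49 h and lower at both 137 and 257 h, a pattern shown by 17.4% of the genes tested. The other 3 were *cyb-1*, *cyd-1*, and *cdk-4*. Over all pairs of a gene and an age 27 of 90 were higher in FEM and 46 were lower (all genes 27.2% and 21.6%).

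These splits depended on the scale in part. The median difference over all genes at 41 h was 0.34 as deposited, -0.24 with quantile normalization, and -0.41 with each library centered on its median. Of the calls over all genes at 41 h, the share that was higher in FEM was 74.8% as deposited, 41.3% with quantile normalization, and 34.8% with centering. The counts for the 10 genes at 41 h were then 7 higher and 2 lower with quantile normalization and 8 and 2 with centering. At 65 h they were 3 and 2 with quantile normalization and 3 and 3 with centering (6 and 1 as deposited), and at 73 h 1 and 7 under both (2 and 3 as deposited). The first age at which most of the 10 genes were called lower in FEM was thus 73 h with either scaling and 89 h as deposited. Over all genes the median difference at 73 h moved too, from 0.15 as deposited to -0.45 with quantile normalization and -0.57 with centering. Shares of all genes called lower under these scalings are not given here. Whether the earlier age is particular to the 10 genes was not tested. At 257 h the counts were 0 and 9 under both, as with the deposited scale.

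**Figure D4:**
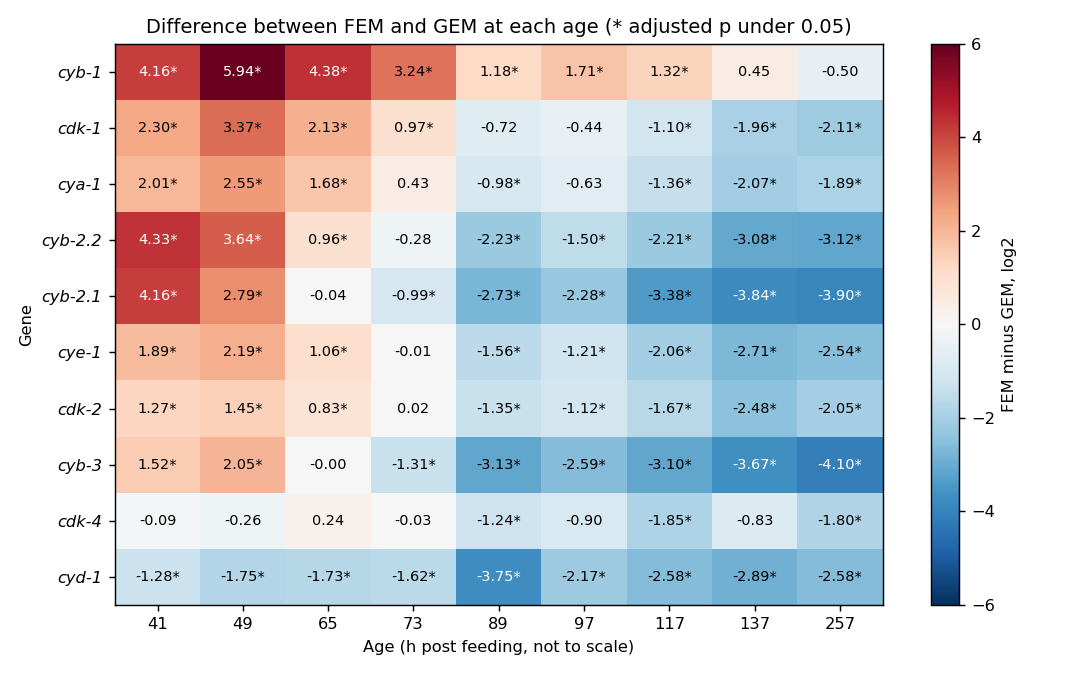
Difference between FEM and GEM, in log2 units, for the 10 genes (rows) at the 9 ages (columns); red cells are higher in FEM, blue cells lower, and an asterisk marks an adjusted p below 0.05 by limma. *cyb-1* is marked as higher in FEM up to 117 h with a peak of 5.94 at 49 h, *cyd-1* is blue throughout, and the other genes are blue from 89 h on.

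Averaged over the 9 ages, 2 genes were higher in FEM (31.1% of all genes) and 7 were lower (38.6%). The higher ones were *cyb-1* (2.43 ± 0.12, limma, adjusted p = 1.64e-18) and *cdk-1* (0.27 ± 0.11, limma, adjusted p = 0.0336). *cyd-1* (-2.26 ± 0.20), *cyb-3* (-1.59 ± 0.15), *cyb-2.1* (-1.13 ± 0.13), *cdk-4* (-0.75 ± 0.13), *cdk-2* (-0.57 ± 0.10), *cye-1* (-0.55 ± 0.12), and *cyb-2.2* (-0.39 ± 0.13) were lower. The split among all genes was 44.6% higher as deposited, 26.4% with quantile normalization, and 18.4% with centering. With *cya-1* called lower, 8 of the 10 genes were lower in FEM with quantile normalization, and 9 with centering, where *cdk-1* was lower too. The *cdk-1* difference was 0.12 with quantile normalization and -0.34 with centering, and its call was lost in 9 of the 45 fits that left out a library: FEM replicate 2 at 65 h, FEM replicate 2 at 117 h, FEM replicate 1 at 257 h, GEM replicate 1 at 49 h, GEM replicate 3 at 73 h, and GEM replicate 2 at 89, 97, 117, and 137 h.

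All 10 genes changed with age in GEM animals, where 84.5% of all genes changed over the 9 ages by limma's F test. In FEM animals 5 of the 10 changed, *cyb-1*, *cyb-2.1*, *cyb-2.2*, *cya-1*, and *cyd-1*, where 64.6% of all genes did. For *cyb-2.1* this was lost without FEM replicate 1 at 41 h (limma, adjusted p = 0.0743). When only the FEM groups were fitted, 8 of the 10 changed with age. The share of all genes in that fit is not given here, so this count cannot be set beside the 64.6%. The main model took a single spread per gene over both strains, and the spread was unequal. For *cyb-3* the standard deviation within a group reached 0.35 in FEM and 1.18 in GEM, and for *cdk-1* 0.31 and 0.79. The course over age differed between the strains for 9 of the 10 genes, where 69.8% of all genes differed. The exception was *cyd-1* (limma, adjusted p = 0.112, or 0.048 without GEM replicate 2 at 89 h), which had its lowest group mean at 65 h in both strains, 3.13 in FEM and 4.86 in GEM. With a pseudocount of 8 the course differed for all 10 genes, and the share of all genes under that setting is not given here.

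The earliest step, from 41 to 49 h, covers the end of the last molt. In FEM animals *cyb-1* rose by 1.97 ± 0.33 (limma, adjusted p = 1.68e-05), *cyb-2.2* by 1.05 ± 0.34 (limma, adjusted p = 0.0145), and *cdk-1* by 0.76 ± 0.30 (limma, adjusted p = 0.0494), so 3 of the 10 genes were higher (23.2% of all genes). *cyd-1* was the 1 gene that fell (12.6% of all genes), by -1.88 ± 0.53 (limma, adjusted p = 0.00541), with 3.90, 2.78, and 4.14 at 49 h against 5.64, 5.66, and 5.15 at 41 h. The *cdk-1* call was lost in 34 of 45 fits without a library, with quantile normalization (0.49), and with centering (0.55). Without FEM replicate 1 at 41 h or FEM replicate 1 at 49 h, *cyb-2.2* (0.98 and 0.96) also lost its call and only *cyb-1* stayed higher. The fall of *cyd-1* lost its call without FEM replicate 2 at 49 h (-1.46). In GEM animals 2 genes were higher at 49 h (11.9% of all genes), *cyb-2.1* by 2.01 ± 0.39 (limma, adjusted p = 0.000374) and *cyb-2.2* by 1.74 ± 0.38 (limma, adjusted p = 0.00121), and 0 were lower (8.07%). Both calls were lost in a fit to only the groups compared (limma, adjusted p = 0.173 and 0.165). GEM libraries at 41 h held 3 to 6 reads of *cyb-2.1* and 5 to 8 of *cyb-2.2*. *cyd-1* changed in GEM by -1.40 ± 0.60 (limma, adjusted p = 0.096, or 0.0436 without GEM replicate 3 at 89 h), and was called with quantile normalization (-1.42), and 3 of the 10 genes had an unadjusted p below 0.05. The change differed between the strains for *cyb-1* alone (11% of all genes), by 1.78 ± 0.50 more in FEM (limma, adjusted p = 0.0113), and for 0 genes in the other direction (7.42%), while 3 of the 10 had an unadjusted p below 0.05. The *cyb-1* call was lost without GEM replicate 1 at 49 h (1.15, limma, adjusted p = 0.157), and the value was 2.40 without GEM replicate 2 at 49 h. *cdk-1* passed in addition without GEM replicate 2 at 49 h (1.54) or replicate 3 at 89 h (1.07). *cyb-2.1*, at -1.37 ± 0.53, passed without GEM replicate 2 at 41 h, replicate 1 at 49 h, replicate 2 at 65 or 73 h, or replicate 3 at 89 h (-1.83 to -1.37), and with centering (-1.64).

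By days 4 and 5 all 10 genes were higher than on day 1 in GEM animals (54.3% of all genes), between 1.40 ± 0.29 for *cdk-4* and 7.91 ± 0.28 for *cyb-2.2*. With centering the rise of *cyd-1* was lost (0.76, limma, adjusted p = 0.0973), which left 9 genes. In FEM animals 4 were higher (35.4%) and 0 lower (20.9%, and 0 at an unadjusted p below 0.05), *cyb-1* by 1.55 ± 0.26, *cyb-2.2* by 1.28 ± 0.27, *cyb-2.1* by 0.81 ± 0.28, and *cya-1* by 0.72 ± 0.20. The *cyb-2.1* call was lost without FEM replicate 2 at 117 h (0.74, limma, adjusted p = 0.0554), and *cdk-2* passed with quantile normalization (0.39). Without the GEM libraries of 65 and 89 h that stood apart, 7 were called in FEM, since *cdk-1*, *cdk-2*, and *cyb-3* joined. In a fit to only the groups compared 8 were called, these 7 and *cye-1*. Shares of all genes in this fit and in the one without those GEM libraries are not given here. The change was smaller in FEM than in GEM for 9 of the 10 genes (41.6%), all but *cyd-1* (-1.22 ± 0.61, limma, adjusted p = 0.0901), which passed in 4 of the 45 fits that left out a library. The *cyd-1* difference also passed with a pseudocount of 8 (limma, adjusted p = 0.0379) and in a fit to only the groups compared (limma, adjusted p = 0.0457). It passed as well without the GEM libraries of 65 and 89 h that stood apart (limma, adjusted p = 0.0494). For *cdk-4* this difference, -1.17 ± 0.40, was lost without GEM replicate 1 at 117 h (-0.94), with quantile normalization (-0.63), and with centering (-0.67).

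Between day 1 and day 10 the B-type cyclins showed the largest rises in GEM animals. *cyb-2.1* rose by 8.49 ± 0.36, *cyb-2.2* by 8.22 ± 0.35, *cyb-3* by 6.30 ± 0.40, and *cyb-1* by 6.29 ± 0.34, which is 360.2-fold, 298-fold, 79.0-fold, and 78.3-fold. The folds of *cyb-2.1* and *cyb-2.2* start from few reads at 41 h, 3 to 6 and 5 to 8 per library. *cye-1* rose by 5.44 ± 0.32, *cdk-1* by 5.22 ± 0.31, *cya-1* by 5.09 ± 0.26, and *cdk-2* by 3.98 ± 0.27. *cyd-1* rose by 1.297 ± 0.55 (limma, adjusted p = 0.0323) and *cdk-4* by 1.303 ± 0.36 (limma, adjusted p = 0.00137). All 10 genes were thus higher (55.1% of all genes). The median over all genes was 1.03 as deposited, 0.03 with quantile normalization, and 0.36 with centering, and relative to the deposited median the 10 genes rose by 0.26 (*cyd-1*) to 7.46 (*cyb-2.1*). The *cyd-1* rise was lost with quantile normalization (0.70) and centering (0.63), and without replicate 1 or 2 of GEM at 257 h (1.48 and 1.11), replicate 3 at 41 h (1.18), or replicate 1 at 49 h (1.01). The *cdk-4* rise was lost with centering (0.63).

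In FEM animals 4 of the 10 genes were higher on day 10 than on day 1 (28.9% of all genes), *cyb-2.1* by 1.12 ± 0.35, *cyb-2.2* by 1.12 ± 0.34, *cya-1* by 0.92 ± 0.25, and *cye-1* by 0.86 ± 0.31. The median over all genes was 0.26. All 4 calls rested on FEM replicate 1 at 257 h, without which 0 of the 10 passed (0.91, 1.01, 0.66, and 0.56). That library and replicate 2 of the same age had muscle genes at 10.77 and 11.88, hypodermis genes at 5.34 and 7.84, intestinal genes at 9.58 and 10.01, oocyte genes at 8.91 and 8.60, and germline genes at 10.61 and 10.28 in turn, and the part of these differences in the result was not tested. *cyb-1*, at 0.75 ± 0.33, did not pass (limma, adjusted p = 0.0608). It did without the GEM libraries of 65 and 89 h that stood apart (limma, adjusted p = 0.0148), with quantile normalization (1.21), and with centering (0.69), and *cdk-2* passed in these fits as well (0.57, 0.63, and 0.52). In a fit to only the groups compared, *cyb-1* (0.75) and *cyb-3* (0.42) passed in addition to the 4. The change was smaller in FEM than in GEM for 9 genes (47.9%), again all but *cyd-1* (-1.07 ± 0.76, limma, adjusted p = 0.228), and the *cdk-4* call was lost with centering (-1.01).

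**Figure D5:**
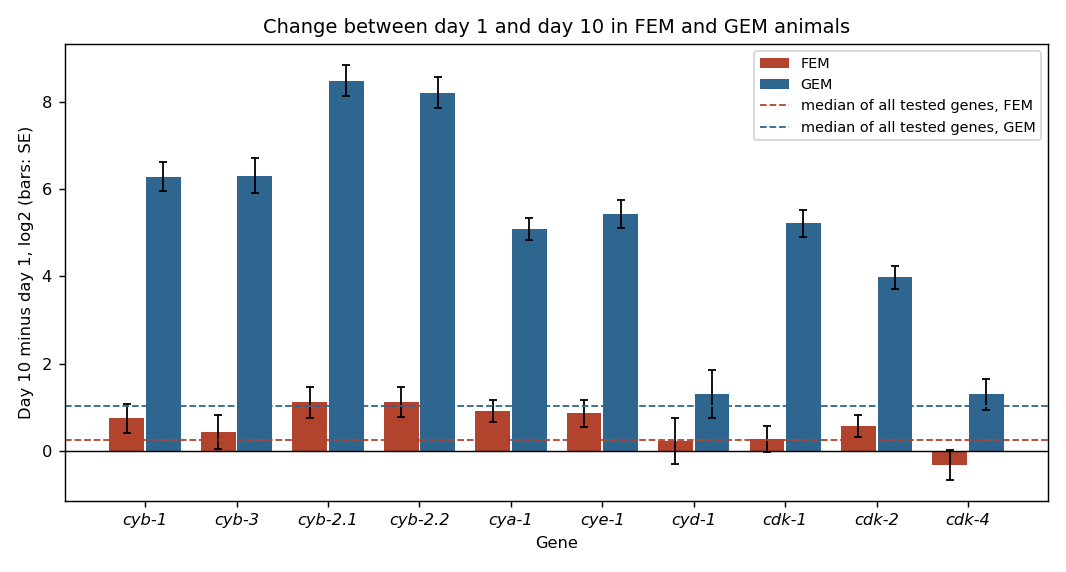
Change from day 1 (mean of 41 and 49 h) to day 10 (257 h), in log2 units, for the 10 genes in FEM (red, left bar) and GEM (blue, right bar), with standard errors from limma; the dashed lines are the medians of all tested genes, 0.26 in FEM and 1.03 in GEM. The GEM bars reach 8.49 for *cyb-2.1*, and no FEM bar exceeds 1.12.

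From day 5 to day 10 limma called 0 of the 10 genes in FEM (17% of all genes called in either direction), 0 in GEM (8.14%), and 0 for the difference between the strains (3.76%). With an unadjusted p below 0.05 there was 1 gene in FEM, *cdk-4*, and 0 in GEM and in the difference. *cdk-4* was at 4.72 and 4.86 on day 10 and at 5.92 and 5.84 on day 5 in FEM libraries, a change of -1.09 ± 0.42 (limma, adjusted p = 0.0762). It passed without GEM replicate 2 at 89 h (limma, adjusted p = 0.0408) or GEM replicate 3 at 89 h (limma, adjusted p = 0.033), which changed only the estimate of the spread, and with quantile normalization (-1.22). *cyb-1* changed by -0.63 ± 0.41 in FEM and 0.32 ± 0.41 in GEM.

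To compare levels between genes, normalized counts were divided by exon length. In FEM animals *cyb-1* had the highest level of the 10 genes at every age, 1890 normalized counts per kilobase at 41 h, 12540 at 117 h, and 6330 at 257 h. *cdk-1* came next from 49 h on, with 1012 at 257 h, and *cyb-3* after it, with 916. In GEM animals *cyb-3* was highest at every age, with 247 at 41 h and 15786 at 257 h, and *cyb-1* reached 108 and 8854. *cdk-1* was at 130 and 4360 in GEM at these ages. *cyd-1* was lowest at every age in FEM, with 22.004 at 41 h and 13.2 at 257 h. In GEM the lowest at 41 h was *cyb-2.1* with 3.56, and at 257 h *cdk-4* with 77.9. *cyb-1* in FEM and *cyb-3* in GEM kept the highest rank when coding length replaced exon length.

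Other cell cycle genes were described by lists of regulators. Of 12 CDK regulators, which hold inhibitors, CDC25 phosphatases, and WEE1-type kinases, 7 were higher in FEM at 41 h and 0 lower, and at 257 h 2 were higher and 9 lower. *cdc-25.4*, a CDC25 phosphatase, was higher in FEM at both ages, by 7.14 ± 0.36 and 4.49 ± 0.44. *cki-1*, a CDK inhibitor of the CIP/KIP family, was 1.197 ± 0.30 higher in FEM at 257 h. Between 41 and 49 h *cki-1* fell by -1.83 ± 0.24 in FEM, and by day 10 it had risen there by 1.33 ± 0.24 against day 1. The median difference over the 12 genes was 0.96 at 41 h and -1.85 at 257 h, beside 0.34 and -0.34 for all genes.

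All 13 genes of the anaphase-promoting complex and its activators, which ends mitosis by destroying B-type cyclins, were higher in FEM at 41 h (median 1.18), led by *apc-10* (3.71 ± 0.35), *such-1* (3.08 ± 0.25), and *fzy-1* (2.74 ± 0.33), the CDC20 activator. At 257 h 12 were lower (median -1.67). The 6 mitotic kinases were higher in FEM at 41 h (median 2.21), led by the Polo-like kinase *plk-3* (5.34 ± 0.36) and the Aurora B kinase *air-2* (2.51 ± 0.30), and lower at 257 h (median -1.38). The 4 genes of the Rb and E2F pathway, which acts downstream of cyclin D, followed the same order, with *dpl-1* 1.34 ± 0.26 higher at 41 h and lower by -2.99 ± 0.32 at 257 h. Of 15 other cyclins and CDKs, mostly with roles in transcription or neurons, 10 were higher and 1 lower in FEM at 41 h (median 0.66), and 1 was higher and 13 lower at 257 h (median -1.49). The exception was *cdka-1*, an activator of CDK-5, at -0.50 ± 0.16 at 41 h and 0.65 ± 0.20 at 257 h. Shares of calls among all genes at these ages were those given above, and no list was tested against other genes. The lists, here and for the changes with age below, were described on the deposited scale only. The median over all genes at 41 h was 0.34 on that scale, -0.24 with quantile normalization, and -0.41 with centering. How far the counts and medians of the lists depend on scaling was not tested.

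Between day 1 and day 10 most genes of these lists rose in GEM animals: 10 of 12 CDK regulators, 13 of 13 genes of the anaphase-promoting complex, 6 of 6 mitotic kinases, 4 of 4 Rb and E2F genes, and 13 of 15 other cyclins and CDKs higher (55.1% of all genes). The medians were 3.88, 3.93, 5.30, 4.04, and 3.05, beside 1.03 for all genes. The largest rises were those of *plk-3* (8.08 ± 0.37), *wee-1.3* (6.41 ± 0.33), a kinase that inhibits CDK-1, and *cdc-25.3* (6.25 ± 0.54). In FEM animals 6, 5, 3, 1, and 8 genes of these lists were higher (28.9% of all genes), with medians of 0.96, 0.39, 0.72, 0.44, and 0.57, beside 0.26 for all genes.

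Over the 18 group means, which share their libraries and scaling, each gene had close neighbors in pattern among all genes tested, given by Pearson's r without a test. For *cyb-1* they were *ify-1* (r = 0.997), *C55C3.3*, and *hcp-2*. For *cyb-3* they were *taf-11.2* (r = 0.995), *C14B1.2*, and *wdr-5.3*, for *cyb-2.1* *fbxa-215* (r = 0.998), *mesp-1*, and *F32D1.7*, and for *cyb-2.2* *egg-3* (r = 0.997), *T22D1.5*, and *mom-2*. *cya-1* was nearest to *mre-11* (r = 0.998), *chk-1*, and *F44B9.8*, and *cye-1* to *tftc-5* (r = 0.998), *parp-2*, and *psf-3*. *cdk-1* was nearest to *T10E9.2* (r = 0.997), *ndc-80*, and *him-10*, and *cdk-2* to *taf-7.2* (r = 0.995), *rae-1*, and *npp-15*. The patterns of *cyd-1* and *cdk-4* had no neighbor as near, with *T09B4.5* (r = 0.9695), *dpy-1*, and *F13E9.11* for *cyd-1* and *C47F8.1* (r = 0.933), *F25H2.7*, and *Y73B6BL.14* for *cdk-4*. Between members, *cye-1* and *cdk-2* had r = 0.991, *cyb-1* and *cdk-1* r = 0.847, *cyb-3* and *cdk-1* r = 0.850, *cyb-1* and *cyb-3* r = 0.469, and *cyd-1* and *cdk-4* r = 0.766. These values span both strains. Over the 9 group means of GEM alone, r was 0.995, 0.992, 0.992, 0.996, and 0.888 for these pairs in turn. Over those of FEM alone it was 0.896, 0.949, 0.692, 0.644, and -0.091.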

How the data were processed

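RNA from whole adult FEM and GEM worms was sequenced in 45 libraries in 18 groups of strain and age. The authors trimmed reads and mapped them to WBCel235 as non-directional single-end reads, counted reads per gene in SeqMonk with isoforms merged, and normalized the counts with DESeq2. The submitters' processing notes name Trim Galore 0.4.4 and HISAT2 2.1.0. The authors deposited log values of the normalized count plus 1 with 2 decimals. The base is not stated and was read as natural log from the values, since the low values of each library were then whole multiples of 1 step (0.411 to 1.91 normalized counts per read). This step gave 12810644 to 43280727 reads in genes per library, an estimate, with 16670 to 20163 genes detected. The planned test assumed log2, and deposited values were therefore converted by dividing by the natural log of 2. Count tests were not used, because rounding hides whole reads of abundant genes.

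Genes whose deposited values averaged 1 or more (16925) entered a single limma 3.58.1 model (R 4.3.3) that had a mean per group and a trended variance prior, with Benjamini-Hochberg adjustment over all of them with a threshold of 0.05. Contrasts were FEM minus GEM at each age and on average, age within each strain, and the difference of these changes; day 1 was the mean of 41 and 49 h. The scripts were tested on simulated data. The table held 0 columns that could not be assigned to a sample. Replicate numbers follow accession order, and the labels do not say whether libraries of a group came from separate cultures, so p-values measure the spread between these libraries. The 10 genes, the lists, and the markers were chosen with earlier results of these data known. All 10 genes are named in each comparison. From each list up to 3 called genes with the largest change and up to 2 called in the opposite direction could be named. *sthk-1* of the somatic gonad list was not found under this name, so 5 genes of that list were used. Alternatives were other filters (none, or an average of 3 or more), quantile normalization, median centering, a pseudocount of 8, an untrended variance prior, models of just the groups in a comparison, coding length, leaving out each library, and, chosen after seeing the data, leaving out 2 GEM libraries that stood apart and a block for libraries with consecutive title codes. Python 3.11.15, numpy 2.4.6, pandas 2.3.3, and matplotlib 3.10.9 were used, and 23897 names matched the annotation.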

Additional observations from a re-analysis of the deposited data

Results flagged for a closer look

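The change with age differed between FEM and GEM in 19 tests over the 10 genes, each a contrast of the same ages in both strains fitted with limma. Values are the FEM change minus the GEM change on the log2 scale, so a negative value is a smaller rise in FEM. Between day 1 and day 10 it was -7.38 for *cyb-2.1*, -7.10 for *cyb-2.2*, -5.88 for *cyb-3*, -5.55 for *cyb-1*, -4.95 for *cdk-1*, -4.58 for *cye-1*, -4.17 for *cya-1*, -3.41 for *cdk-2*, and -1.63 for *cdk-4*. Between day 1 and days 4 and 5 it was -7.08 for *cyb-2.1*, -6.63 for *cyb-2.2*, -5.17 for *cyb-3*, -4.42 for *cye-1*, -4.37 for *cdk-1*, -4.16 for *cyb-1*, -4.001 for *cya-1*, -3.44 for *cdk-2*, and -1.17 for *cdk-4*. Both contrasts share their day 1 libraries. Between 41 and 49 h it was 1.78 for *cyb-1*, the only positive value. *cdk-4* lost its call with centering in both contrasts (-1.01 and -0.67) and with quantile normalization between day 1 and days 4 and 5 (-0.63). No group held more than 3 libraries, so single libraries were not checked for outliers by Dixon's test.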

How the results depend on the processing

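Counts of genes called stayed within 1.5 times under no filter, a mean of at least 3, a pseudocount of 8, and moderation without a trend. Shares of all genes called under the alternative settings are not given here beside these counts. With quantile normalization 1 gene was lower on day 10 than on day 5 in FEM (0 as deposited), 1 lower at 49 than at 41 h in GEM (0), and 1 higher in FEM over all ages (2). With centering 1 gene was higher in FEM over all ages, and 1 had a smaller change from 41 to 49 h in FEM (0). In fits to only the groups compared, 8 genes changed with age in FEM (5), and 8 were higher on days 4 and 5 than on day 1 in FEM (4). At 49 h 5 were higher than at 41 h in FEM (3) and 0 in GEM (2), and 2 had a larger early change in FEM (1). Without the GEM libraries of 65 and 89 h that stood apart, 1 gene was lower on day 10 than on day 5 in FEM. Then 7 were higher on days 4 and 5 than on day 1 in FEM, and 1 was lower at 49 than at 41 h in GEM. The early change was larger in FEM for 2 genes and smaller for 1. Reversed values were *cdk-2* at 65 h (-0.15 with quantile normalization, -0.13 with centering) and at 73 h (-0.77 and -0.70), *cyb-2.2* at 65 h (-0.0096 with centering), and *cdk-1* over all ages (-0.34 with centering). Gene and age pairs were 22 higher and 57 lower with quantile normalization, 22 and 59 with centering. The cause was not tested.

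Leaving out each library in turn gave 24 to 27 pairs higher in FEM and 44 to 48 lower, 1 to 2 genes higher in FEM over all ages and 7 lower, 4 to 5 changed with age in FEM, 10 in GEM, and 9 to 10 with a different course. Compared with 41 h in the same strain, 1 to 3 genes were higher and 0 to 1 lower at 49 h in FEM. In GEM 2 were higher and 0 to 1 lower, with 0 to 2 larger and 0 to 1 smaller changes in FEM than in GEM. Compared with day 1 in the same strain, 3 to 6 were higher on days 4 and 5 in FEM and 10 in GEM. The change was smaller in FEM for 8 to 10. By day 10, 0 to 6 were higher than on day 1 in FEM and 9 to 10 in GEM, with 9 smaller changes in FEM. After day 5, 0 to 1 fell in FEM. The labels give no replicate numbers, but codes in the titles run on from a GEM to a FEM library of the same age in 12 pairs, and what they mark is not stated. Deviations from the group means correlated above 0.1 in 2 of the 12 pairs (-0.20 to 0.19, median 0.05), so the libraries were not treated as paired. As a replicate block, chosen after seeing the data, these pairs left 27 gene and age pairs higher in FEM, moved the lower ones to 47, and gained 1 call, *cdk-1* at 89 h (-0.75). A group left with 1 library was assumed to vary like the others. Thin coverage limits *cyd-1* in FEM and both *cyb-2.1* and *cyb-2.2* in GEM on day 1.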
